A study of Homo sapiens with 40 samples.

Results

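The genes described here are 56 genes of the short arm of human chromosome 5 (5p), listed from the telomere to the centromere from SDHA to DAB2, among 59251 gene symbols counted. They were chosen by symbol and span 39.21 Mb around MYO10, which was left out of the list. Of the 56, 52 passed the low-count filter, among 19703 genes tested. AHRR, NKD2 and ADCY2 had at most 6, 11 and 1 counts in any library. MED10, a subunit of the Mediator complex, had no count in any of the 40 libraries, which allows up to 3 counts in each. Dividing cells generally need Mediator, so this 0 cannot be read as absence of the transcript.

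The cells were H1299, which were established from a human non-small cell lung cancer, grown as 10 lines with 4 replicate cultures per line, and their RNA was sequenced. Of the 10 lines, 3 carried no edit: the parentals, leaders and followers. Leaders are the cells at the front of a collectively invading group and followers the cells behind them. The other 7 lines were clones treated with CRISPR-Cas9, in leader cells according to the series title: clones 38 and 75 with both genes wild-type (MYO10 and JAG1), clones 35 and 72 with a JAG1 knockout, clones 98 and 99 with a MYO10 knockout, and clone 84. For clone 84 the genotype label gives a MYO10 knockdown but the title a knockout, and it is called the knockdown clone below. Each edited line is 1 clone, so what a clone carried by chance and what its edit did cannot be told apart within a line, and the positions cut by the guides are not given in the sources used here.

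A cell transcribes a gene from each copy of the chromosome that carries it, so a segment with more or fewer copies tends to show higher or lower transcript levels over many neighbouring genes at once, while single genes can depart from their neighbours through their own regulation. The short arm of chromosome 5 is often gained in lung carcinoma. It carries TERT, the catalytic subunit of telomerase, near the telomere, and DROSHA, the nuclease that starts microRNA processing, and SKP2, which marks the cell cycle inhibitor p27 for degradation, nearer the centromere. No DNA copy number was used here, so fewer gene copies and less RNA per copy cannot be told apart, nor can fewer cells with a transcript and less transcript per cell.

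The list was divided along the chromosome into a distal block of 14 genes (SDHA to MRPL36, 12 tested), a middle block of 18 (MED10 to BASP1, 16 tested) and a proximal block of 24 (DROSHA to DAB2, all tested). MYO10 lies on the minus strand at chr5:16661907-16936288 (GRCh38) in the middle block, 0.04 Mb past the end of RETREG1 and 0.28 Mb before the start of BASP1. The next listed gene towards the centromere, DROSHA, starts 14.12 Mb past the end of BASP1. Starts on the genome followed the listed order in all but 1 of 55 neighbouring pairs, FASTKD3 and MTRR. The annotated spans of 31 of the 56 genes overlap a gene on the other strand, and reads of such a pair cannot be told apart without a stated strand setting. SDHA has near-identical pseudogenes, and its counts are uncertain for that reason.

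The promoters of MYO10 and its nearest listed neighbours are shown because the 3 genes all had their lowest mean in the follower line, while the 2 neighbours went opposite ways in the MYO10-edited clones. Each is the RefSeq sequence (GRCh38.p14) from 250 bases before to 50 bases after the start of the gene, 5′ to 3′, with every CG in capitals.
RETREG1, chr5:16616948-16617247, minus strand: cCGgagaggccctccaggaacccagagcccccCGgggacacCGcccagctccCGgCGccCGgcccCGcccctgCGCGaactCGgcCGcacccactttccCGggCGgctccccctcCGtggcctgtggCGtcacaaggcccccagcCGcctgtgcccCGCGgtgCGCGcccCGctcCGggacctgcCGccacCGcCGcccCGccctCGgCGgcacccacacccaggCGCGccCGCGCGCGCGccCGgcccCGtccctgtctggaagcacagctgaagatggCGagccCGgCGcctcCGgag
MYO10, chr5:16936239-16936538, minus strand: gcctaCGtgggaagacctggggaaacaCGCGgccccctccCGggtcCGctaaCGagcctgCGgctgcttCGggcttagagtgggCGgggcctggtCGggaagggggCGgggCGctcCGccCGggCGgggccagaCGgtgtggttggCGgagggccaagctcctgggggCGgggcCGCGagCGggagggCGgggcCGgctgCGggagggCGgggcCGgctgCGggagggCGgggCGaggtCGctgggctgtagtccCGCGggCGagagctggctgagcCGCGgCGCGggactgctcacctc
BASP1, chr5:17216573-17216872, plus strand: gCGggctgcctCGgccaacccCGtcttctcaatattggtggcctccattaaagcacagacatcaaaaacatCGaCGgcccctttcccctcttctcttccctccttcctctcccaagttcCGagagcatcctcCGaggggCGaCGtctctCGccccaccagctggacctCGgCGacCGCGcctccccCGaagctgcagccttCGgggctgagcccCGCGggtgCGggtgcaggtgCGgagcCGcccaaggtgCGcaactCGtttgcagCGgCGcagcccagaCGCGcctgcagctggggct
These windows hold 41, 37 and 27 CG, the letters C and G side by side, which read the same on both strands and never overlap. The median over all 35116 promoters of this length was 14, with quartiles of 4 and 28, and 96% of them held at least 1. A promoter was matched for 50 of the 56 listed genes, whose median was 33.5 CG (range 1 to 51). The count describes the letters only, and methylation was not measured.

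Libraries held 40038816 to 44013445 counts, and Spearman coefficients between cultures of a line were at least 0.991. The epithelial keratin transcript KRT18 averaged 49.9 to 722 CPM (counts scaled to a common library total) by line and the mesenchymal VIM 1070 to 2730, while EPCAM and CDH1 were at most 0.173 CPM. Of 8 markers of blood cells, endothelium and fibroblasts, PTPRC, CD3E, CDH5 and COL1A2 stayed at most at 0.0701 CPM in every line, and the sum of all 8 ran from 0.0741 to 9.58 CPM per library, highest in parentals, where COL1A1 reached 7.73 CPM. Their part in the results was not tested.

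MYO10 encodes myosin-X, a motor of filopodia, and its level checks the labels. In knockdown clone 84 the 4 libraries had 135.1, 133.7, 190.5 and 139.6 CPM, in knockout clone 98 they had 63.0, 55.4, 67.8 and 67.6 CPM, and in knockout clone 99 they had 47.6, 49.1, 52.2 and 59.1 CPM. The wild-type clones ran from 421.7 to 596.2 CPM (clone 38) and from 387.5 to 535.8 CPM (clone 75), above every library of the 3 MYO10-edited clones. MYO10 was 1.63 ± 0.13 log2 units lower in clone 84 (log2 fold change ± SE, edgeR quasi-likelihood adjusted p = 4.0e-10), 2.87 ± 0.15 lower in clone 98 and 3.16 ± 0.15 lower in clone 99 than in the wild-type clones. Among the 52 tested genes of the list, 5 had a lower change than MYO10 in clone 84 (NSUN2, MTRR, DNAH5, TRIO and SLC1A3), 1 in clone 98 (SLC1A3) and 2 in clone 99 (SLC1A3 and DAB2). In all 3 clones the change of MYO10 thus lay below those of most listed genes. In clone 84 the listed genes nearest to MYO10 all lay above it: FBXL7 (-1.16), ZNF622 (-1.11), RETREG1 (4.85) and BASP1 (-1.20).

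Most of the 5p genes fell in clones 84 and 99, and 22 of the 52 tested fell in clone 98. Calls needed an edgeR adjusted p under 0.05 and an absolute log2 change of at least 0.4. Against both wild-type clones, 45 of the 52 fell, 3 rose and 4 were not called in knockdown clone 84, where 18.6% of all genes tested were called, 11.2% as higher and 7.34% as lower. In knockout clone 99, 47 fell, 1 rose and 4 were not called, against 29.2% of all genes called, 16.2% higher and 13% lower. In knockout clone 98, 22 fell, 5 rose and 25 were not called, against 30.9% of all genes called, 15.6% higher and 15.3% lower. The median change over the tested members was -0.96 in clone 84, -0.99 in clone 99 and -0.26 in clone 98, where the median over all genes tested was between 0.01 and 0.02. These 3 comparisons share the wild-type clones, and those of clones 98 and 99 taken singly were added after the values were seen.

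For the knockout genotype as a whole, with a call only where all 4 pairs of a knockout and a wild-type clone passed, 27 of the 52 fell, 1 rose and 24 were not called. Of all genes, 19.2% were called in this comparison, 10.4% as higher and 8.85% as lower. The fall was spread unevenly along the arm, with 10 of 12 tested distal genes, 13 of 16 middle genes and 4 of 24 proximal genes. The medians were -0.79, -0.98 and -0.37 in that order, and the median over all 52 was -0.68 against 0.00 over all genes tested.

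**Figure D1:**
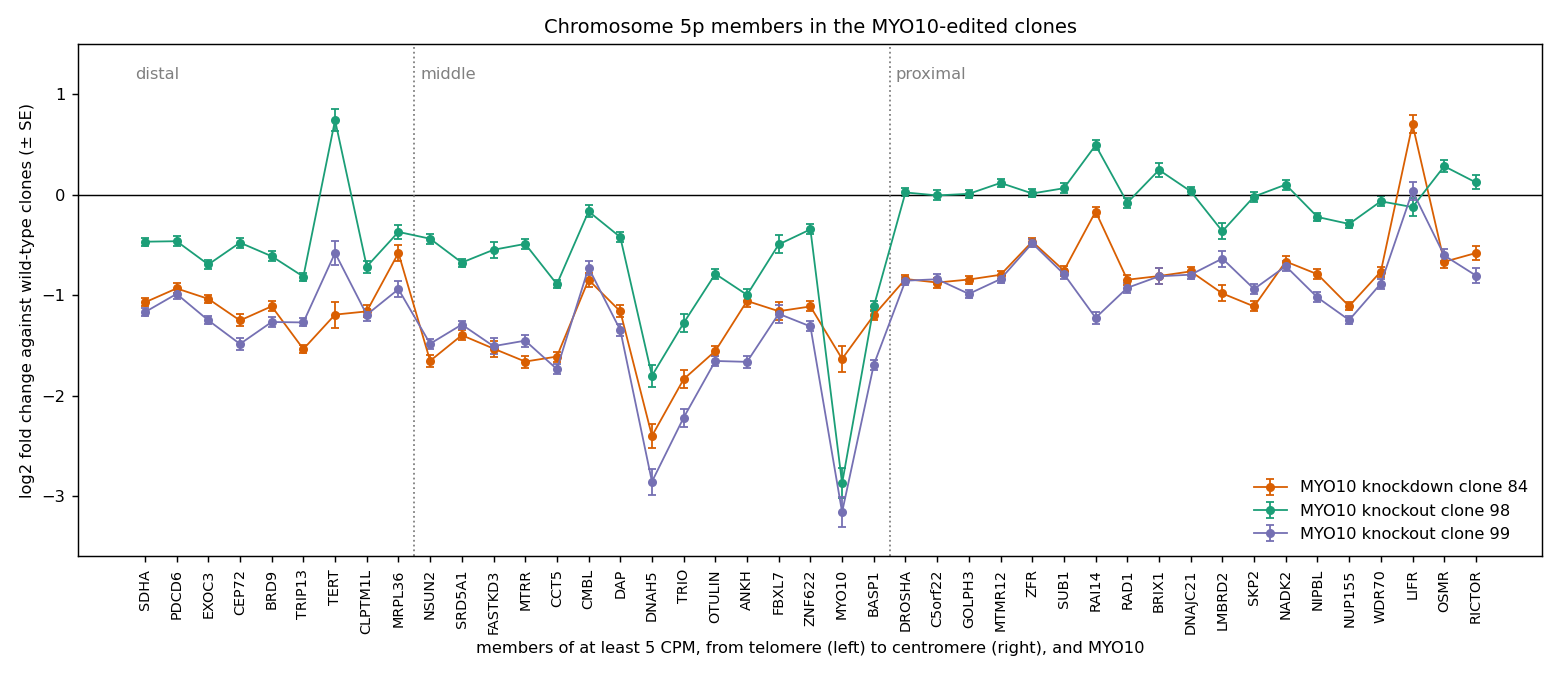
Log2 fold change (± SE) of each listed gene of at least 5 CPM, and of MYO10, in knockdown clone 84 and knockout clones 98 and 99 against the wild-type clones, ordered from telomere to centromere; dotted lines divide the distal, middle and proximal blocks. Clones 84 and 99 lie below 0 over nearly the whole list, whereas most genes of clone 98 lie below 0 as far as BASP1, TERT being above it (0.74), and their median is near 0 from DROSHA on, with single genes from -0.36 (LMBRD2) to 0.49 (RAI14).

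In the distal block, SDHA, the flavoprotein subunit of mitochondrial complex II, had 210.8 to 240.8 CPM over the 8 wild-type libraries. Its 4 libraries had 106.4, 111.6, 111.7 and 103.4 CPM in clone 84, 177.8, 167.3, 157.1 and 155.8 in clone 98, and 104.4, 100.1, 97.1 and 103.1 in clone 99. No library of the 3 clones reached the lowest wild-type library, and clone 98 lay between the wild-type clones and clones 84 and 99. TRIP13, an ATPase of the mitotic checkpoint, stood at 34.4%, 56.8% and 41.4% of its wild-type mean of 200.3 CPM in clones 84, 98 and 99. The chromatin reader BRD9 fell by 1.11 ± 0.05, 0.61 ± 0.05 and 1.27 ± 0.05 in the same order, and the exocyst subunit EXOC3 fell by 1.04 ± 0.04, 0.69 ± 0.04 and 1.25 ± 0.04. Over the 9 distal genes of at least 5 CPM, the median ratio to the wild-type mean was 46.3% in clone 84, 71.8% in clone 98 and 43.7% in clone 99.

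TERT departed from the distal block in clone 98. It had 23.9, 18.7, 21.9 and 16.9 CPM there, 6.59, 5.57, 4.32 and 4.80 CPM in clone 84, and 7.02, 7.43, 8.63 and 9.46 CPM in clone 99. Wild-type clones 38 and 75 ran from 11.1 to 14.4 and from 9.48 to 15.9 CPM, below every library of clone 98. TERT rose by 0.74 ± 0.11 log2 units in clone 98 (edgeR adjusted p = 1.2e-05) and fell by 1.19 ± 0.13 in clone 84 and by 0.58 ± 0.12 in clone 99. The unedited lines were lower than the wild-type clones, with 1.59 to 2.26 CPM in leaders and 5.91 to 8.33 CPM in parentals. Every library of clones 84 and 99 thus lay above every leader library.

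In clones 84 and 99 the middle block had the lowest median. CCT5, a subunit of the chaperonin that folds actin and tubulin, had 940.8 to 1132 CPM over the 8 wild-type libraries. Its 4 libraries had 340.7, 360.9, 337.2 and 305.7 CPM in clone 84, 570.3, 572.4, 530.4 and 542.4 in clone 98, and 305.6, 323.2, 307.2 and 296.9 in clone 99. The groups did not overlap with the wild-type clones in any of the 3, and the change was -1.61 ± 0.05, -0.89 ± 0.04 and -1.74 ± 0.05 in clones 84, 98 and 99 (edgeR adjusted p = 1.6e-27, 1.6e-19 and 4.4e-29). TRIO, a guanine nucleotide exchange factor, had 321.9 to 461.2 CPM in the wild-type libraries, 100.2 to 116.3 in clone 84, 143.6 to 187.5 in clone 98 and 70.6 to 110.5 in clone 99, and was 1.84 ± 0.09, 1.28 ± 0.09 and 2.22 ± 0.09 log2 units lower. DNAH5, a heavy chain of the dynein of motile cilia, was at 18.9%, 28.6% and 13.8% of its wild-type mean of 26.5 CPM, the lowest share of any middle gene of at least 5 CPM in each of the 3 clones. CMBL, a hydrolase, had the highest share, at 55.3%, 88.6% and 60%, and was called in clones 84 and 99 but not in clone 98. For DNAH5 the leaders averaged 11.5 CPM, below the wild-type clones and above the 3 MYO10-edited clones.

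The genes next to MYO10 differed in how they moved. BASP1, a membrane-bound protein of growth cones, had 232.4, 233.7, 239.2 and 252.6 CPM in wild-type clone 38 and 242.6, 255.3, 257.4 and 269.4 CPM in clone 75. It had 112.1, 113.7, 97.4 and 107.9 CPM in clone 84, 106.2, 112.7, 117.5 and 121.9 CPM in clone 98, and 72.0, 84.3, 75.2 and 75.1 CPM in clone 99. No library of the 3 clones came near the lowest wild-type library, and BASP1 was 1.20 ± 0.05, 1.11 ± 0.05 and 1.69 ± 0.05 log2 units lower. On the telomeric side, ZNF622, a factor of large ribosomal subunit maturation, fell by 1.11 ± 0.05 in clone 84 and 1.31 ± 0.05 in clone 99 and was not called in clone 98 (-0.35 ± 0.05, under the fold minimum). FBXL7, an F-box protein of ubiquitin ligases, fell by 1.16 ± 0.09, 0.50 ± 0.09 and 1.19 ± 0.09 in clones 84, 98 and 99. Its mean was 13.6 and 13.5 CPM in wild-type clones 38 and 75, 9.60 CPM in clone 98 and 8.83 CPM in the unedited leaders.

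RETREG1, a receptor that sends endoplasmic reticulum to autophagy, went the other way. Wild-type clones 38 and 75 had 0.143, 0.0735, 0.124 and 0.0968 CPM and 0.223, 0.168, 0.114 and 0.209 CPM. Clone 84 had 4.22, 3.51, 4.82 and 3.93 CPM, clone 98 had 0.568, 1.14, 0.985 and 0.725 CPM, and clone 99 had 0.393, 0.411, 0.495 and 0.342 CPM. Every library of the 3 clones lay above every wild-type library, and RETREG1 rose by 4.85 ± 0.21, 2.59 ± 0.25 and 1.53 ± 0.30 log2 units (edgeR adjusted p = 1.2e-18, 1.9e-08 and 0.0032). The unedited leader line, at 6.05 CPM, was above all 3, so the edited clones differed among themselves within the range of the unedited lines. RETREG1 was also called higher than in the wild-type clones in JAG1 knockout clones 35 (3.78) and 72 (1.82), so its rise was not particular to the MYO10-edited clones.

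**Figure D2:**
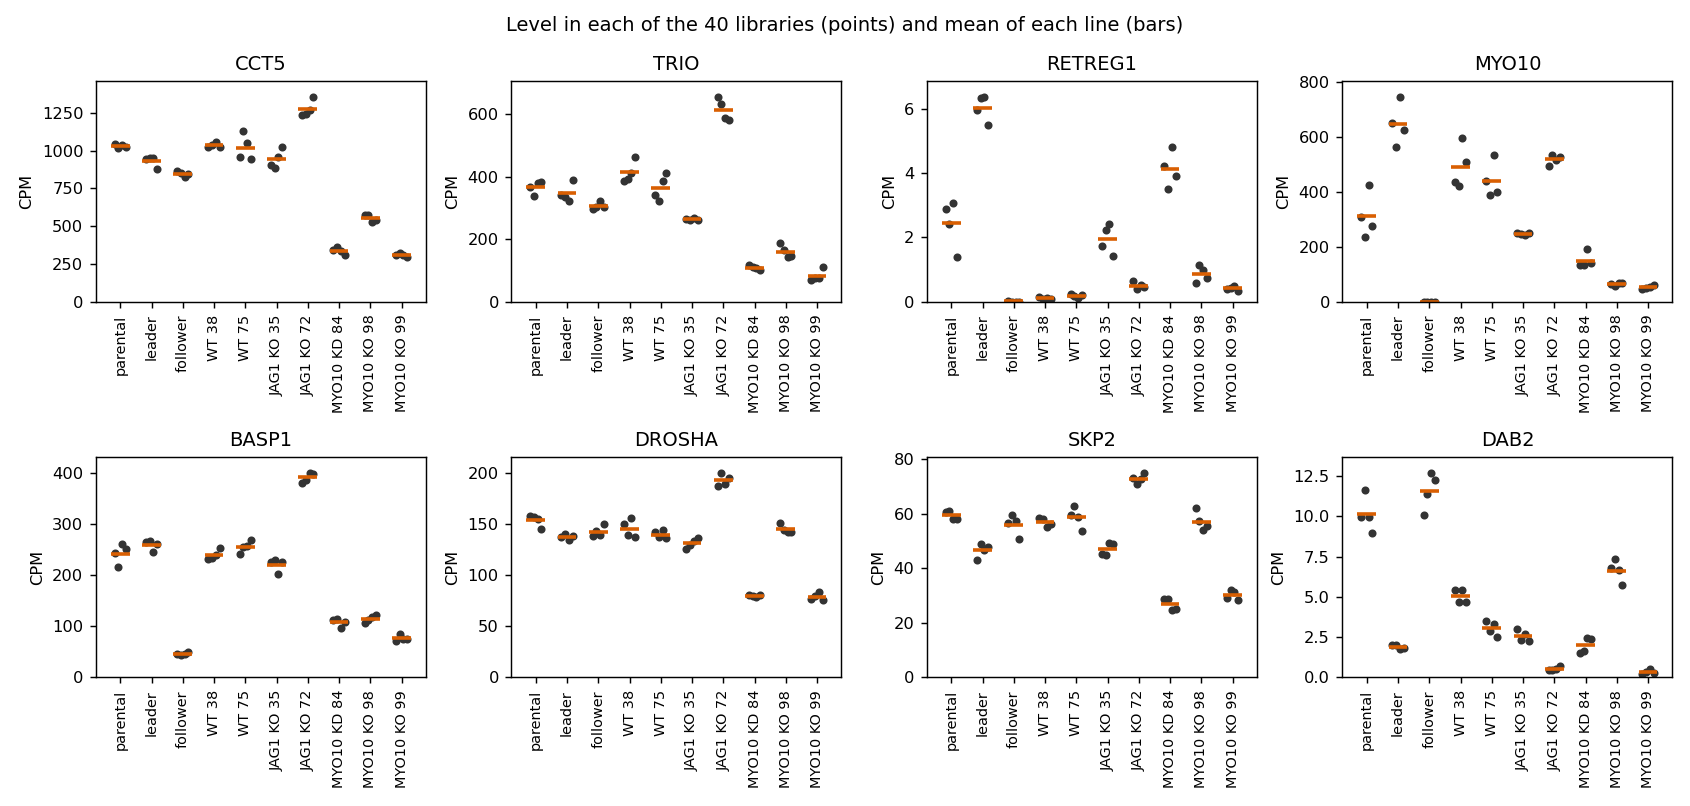
Level in CPM of 7 listed genes and MYO10 in each of the 40 libraries (points) with the mean of each line (bars); each panel has its own linear axis from 0. Against the wild-type clones, CCT5, TRIO and BASP1 are lower in all 3 MYO10-edited clones, and RETREG1 is higher in all 3. DROSHA, SKP2 and DAB2 are lower in clones 84 and 99 and not in clone 98, where DAB2 is higher.

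In the proximal block most genes fell in clones 84 and 99, and the median of clone 98 was near the wild-type level. DROSHA had 149.6, 139.1, 156.4 and 137.4 CPM in wild-type clone 38 and 141.8, 137.3, 143.9 and 135.9 CPM in clone 75. It had 80.2, 79.7, 78.3 and 80.7 CPM in clone 84, 76.9, 79.1, 83.7 and 75.4 CPM in clone 99, and 151.1, 144, 142.2 and 142.1 CPM in clone 98, whose libraries overlapped with the wild-type ones. The change was -0.84 ± 0.04 in clone 84 (edgeR adjusted p = 8.2e-20), -0.86 ± 0.04 in clone 99 (1.4e-20) and 0.02 ± 0.04 in clone 98, where it was not called. SKP2 showed the same split, with a wild-type mean of 57.8 CPM against 26.8 CPM in clone 84, 30.2 in clone 99 and 57.1 in clone 98.

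Counted over the block, 20 of 24 proximal genes fell in clone 84, 21 in clone 99 and 1 in clone 98. The 1 in clone 98 was SLC1A3, and RAI14, NPR3 and DAB2 rose there. NPR3 had at most 12 counts in any of these libraries, and its call (1.82 ± 0.58, edgeR adjusted p = 0.046) was lost in 8 of the alternatives run, the value without replicate 3 of clone 98 being 1.30 (edgeR adjusted p = 0.26). Over the 19 proximal genes of at least 5 CPM the median ratio to the wild-type mean was 57.8% in clone 84, 55.8% in clone 99 and 101% in clone 98, and the lowest ratio in clone 98 was 77.4%, for the membrane protein LMBRD2. NUP155, a nuclear pore subunit, was at 46.3%, 42.1% and 81.7% in clones 84, 99 and 98. OSMR, a receptor of oncostatin M, had 52.4 to 55.9 CPM in clone 84, 47.6 to 63.6 in clone 99, 96.2 to 112.3 in clone 98 and 78.8 to 94.8 over the wild-type clones.

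Block medians were also taken for single libraries. For each library, the median log2 level of the genes of at least 5 CPM was taken relative to the mean of the 8 wild-type libraries. In clone 84 it was -1.11 ± 0.080 (mean ± SD, n = 4) over the distal genes, -1.45 ± 0.038 over the middle genes and -0.75 ± 0.028 over the proximal genes. Clone 99 had -1.20 ± 0.037, -1.50 ± 0.086 and -0.84 ± 0.106, and clone 98 had -0.54 ± 0.111, -0.64 ± 0.073 and 0.02 ± 0.044. In each of these 3 clones the proximal median of every library lay above its distal and middle medians.

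**Figure D3:**
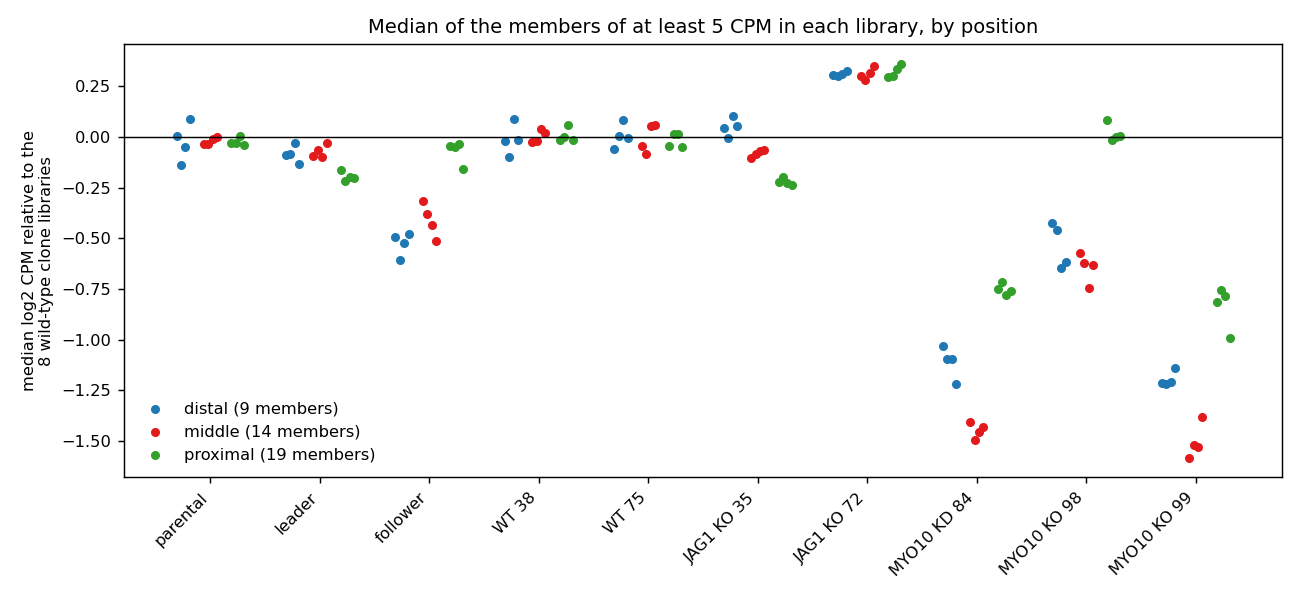
Median log2 CPM of the listed genes of at least 5 CPM in each library, relative to the mean of the 8 wild-type clone libraries, for the distal (9 genes), middle (14) and proximal (19) blocks; each point is 1 library. Clone 98 is split between lower distal and middle medians and a proximal median near 0, clones 84 and 99 are lower in all 3 blocks, and JAG1 knockout clone 72 is higher in all 3.

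Set directly against each other, 45 of 52 genes were higher in knockout clone 98 than in knockout clone 99 and 7 were not called, against 25.2% of all genes tested that were called, 11% as higher and 14.3% as lower. The median difference was 0.56 over the distal block, 0.93 over the middle block and 0.87 over the proximal block. All 16 tested middle genes passed, together with 10 of 12 distal and 19 of 24 proximal genes. MYO10 itself was not called (0.29 ± 0.15, edgeR adjusted p = 0.12). The largest difference was that of DAB2, a clathrin adaptor at the centromeric end of the list, with 6.79, 7.32, 6.65 and 5.71 CPM in clone 98 and 0.231, 0.343, 0.495 and 0.251 CPM in clone 99 (4.32 ± 0.18 log2 units). CTNND2 came next, on 25 counts over the 4 libraries of clone 98 and 3 over those of clone 99. The actin-binding protein RAI14 had 149.4 against 45.4 CPM on average (1.72 ± 0.06).

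Knockdown clone 84 and knockout clone 99 were closer to each other. Between them 9 genes were higher in clone 84, 1 was lower and 42 were not called, where 33.8% of all genes tested were called, 17% as higher and 16.8% as lower. The 9 were TPPP, CTNND2, DNAH5, ANKH, RETREG1, BASP1, RAI14, LIFR and DAB2, and the lower gene was TERT (-0.61 ± 0.14). This comparison was also added after the values were seen.

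Genes of chromosome 5 that are not on the list carried the pattern beyond it. On the telomeric side of MYO10, 13 other genes of at least 5 CPM had medians of -1.08, -0.73 and -1.44 in clones 84, 98 and 99, and all 13 were negative in each clone. Between DAB2 and the boundary of the arms, placed at 48 Mb, 15 other genes had medians of -0.71 in clone 84, -0.70 in clone 98 and -0.17 in clone 99. Clone 98 was thus lower again past the end of the list, where clone 99 was near the wild-type level, and between clones 98 and 99 the median difference of these 15 genes was -0.57, opposite to that of the listed proximal genes. On the long arm, the median over 411 genes was 0.11, 0.09 and 0.12, and over the 48 of them within 20 Mb of the boundary it was -0.53 in clone 84, 0.02 in clone 98 and 0.10 in clone 99. The segment beyond DAB2 and the first 20 Mb of the long arm were chosen after the values were seen.

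**Figure D4:**
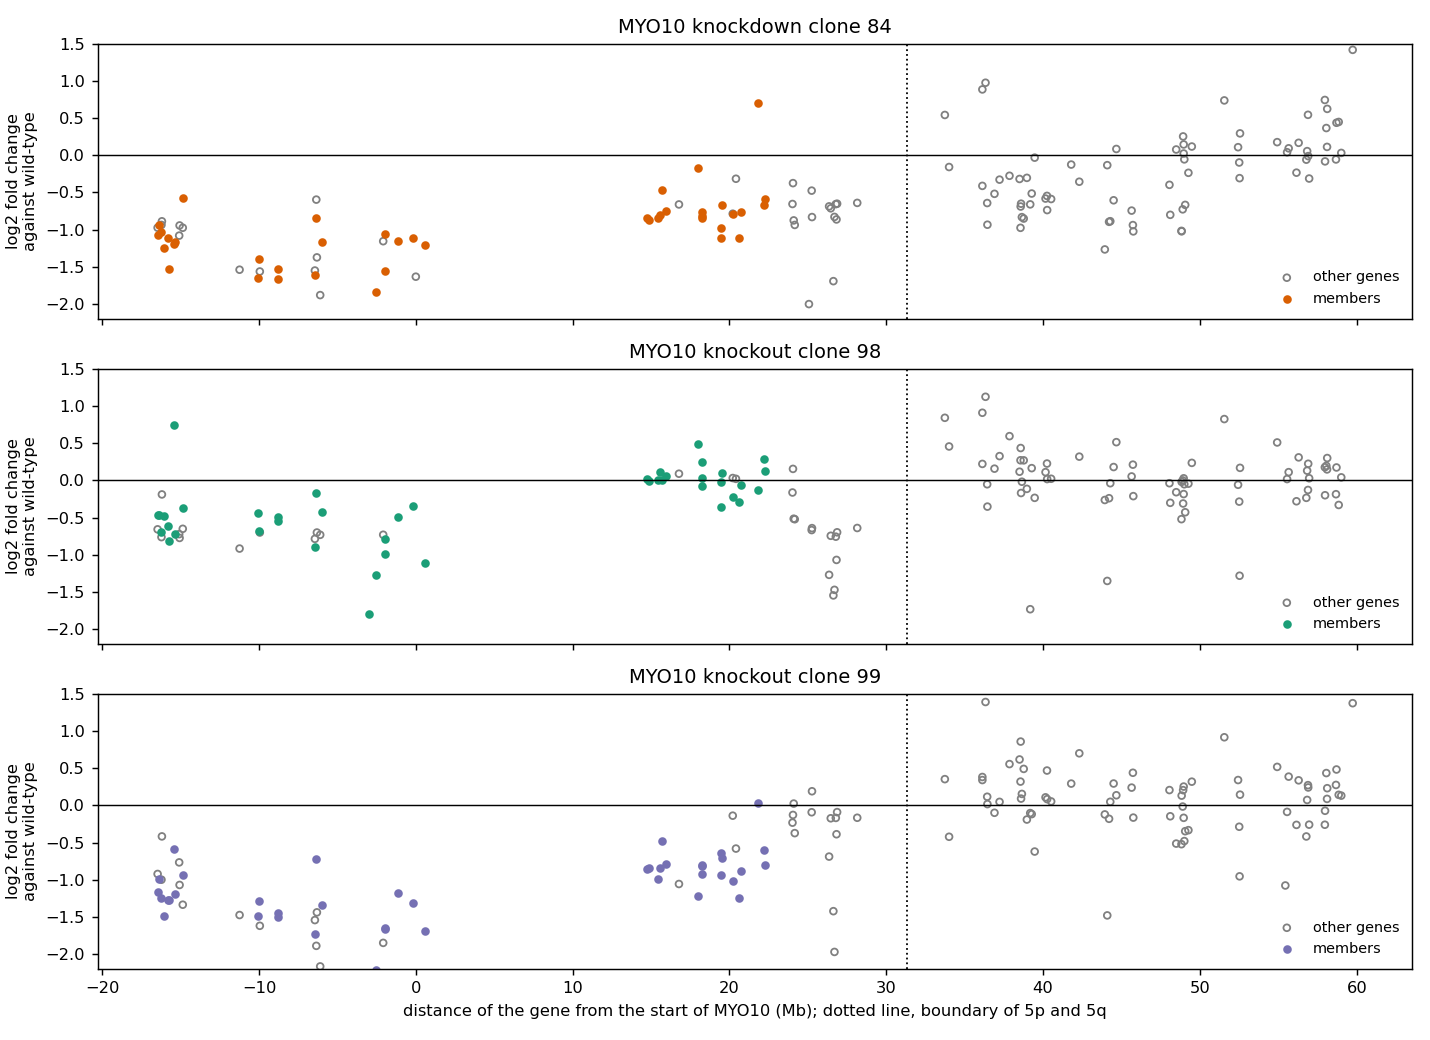
Log2 fold change against the wild-type clones in clones 84, 98 and 99, for 148 of the genes of at least 5 CPM on chromosome 5. Not all genes of the long arm are shown. Genes are placed by distance in Mb from the start of MYO10, here its lower genome coordinate (negative towards the telomere of the short arm). Filled points are listed genes, open points other genes, and 2, 6 and 4 genes fall outside the axis. By their medians, clone 84 is lower also in the first 20 Mb past the arm boundary (dotted line), with single genes above 0, clone 99 is close to 0 between the listed genes and the boundary, and clone 98 is near 0 over the proximal listed genes and lower beyond them.

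Ranked among 24 chromosomes, with chromosome 5 taken as 2 arms, 5p had the lowest median change of genes of at least 5 CPM in clone 84 (-0.94, the next being -0.38 on chromosome 21) and in clone 99 (-0.99, the next being -0.39 on chromosome 18). In clone 98 it was the second lowest (-0.52, after -0.63 on chromosome 7). Median shifts of this kind were therefore present on other chromosomes of the clones too.

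A few listed genes did not move with their neighbours. In clone 84, CTNND2, a delta-catenin of cell junctions, rose from 14 counts over the 8 wild-type libraries to 47 to 102 counts in each library (1.07 to 2.38 CPM, edgeR adjusted p = 7.0e-12). LIFR, the receptor of leukaemia inhibitory factor, had 19.3, 20.2, 20.6 and 18.4 CPM in clone 84 against 10.8 to 14 CPM over the wild-type clones, without overlap (0.70 ± 0.09, edgeR adjusted p = 8.7e-06). The tubulin-binding TPPP, the scaffold PDZD2, the natriuretic peptide receptor NPR3 and RAI14 were not called in clone 84, with changes of 0.51, -0.34, 1.02 and -0.17. In clone 99 CTNND2, PDZD2, NPR3 and LIFR were not called, with changes of -0.89, -0.34, 0.92 and 0.04. CTNND2, PDZD2 and NPR3 had means under 1 CPM in the wild-type clones, so their changes rest on few reads.

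SLC1A3, a glutamate transporter, was low in all 3 MYO10-edited clones but differed between the wild-type clones as well. Clone 38 had 1.81, 2.11, 1.36 and 1.86 CPM and clone 75 had 0.424, 0.361, 0.274 and 0.162 CPM. The 4 libraries together held 6 counts in clone 84, 9 in clone 98 and 3 in clone 99, against 294 and 53 counts in the wild-type clones. It was called lower in each of them, and with 0 to 4 counts in each of these libraries no fold is given.

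By role, each group of the list held genes that fell in all 3 MYO10-edited clones. The counts are to be read beside the 18.6%, 29.2% and 30.9% of all genes called in clones 84, 99 and 98, and in clone 98 several groups were near that share. The 7 genes of RNA processing, ribosome assembly and protein folding (DROSHA, ZFR, NSUN2, BRIX1, DNAJC21, CCT5 and ZNF622) were all lower in clones 84 and 99, with medians of -0.84 and -0.86, and 2 of them, NSUN2 and CCT5, in clone 98. NSUN2, an RNA methyltransferase, stood at 93.7, 105.5 and 217.6 CPM in clones 84, 99 and 98 against 295 CPM in the wild-type clones. The 9 genes of mitochondria and metabolism were all lower in clones 84 and 99 (medians -1.02 and -0.94) and 5 of them were lower in clone 98.

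The 5 genes of the cell cycle and telomeres (TERT, TRIP13, SKP2, RAD1 and CEP72) were all lower in clones 84 and 99, and in clone 98 TRIP13 and CEP72 fell and TERT rose. Of the 9 tested genes of the cytoskeleton, adhesion and trafficking, 5 fell and 1 rose in clone 84, 7 fell in clone 99, and 4 fell and 1 rose in clone 98. Of the 6 tested genes of receptors and signalling, 4 fell and 1 rose in clone 84, 4 fell in clone 99, and 1 fell and 2 rose in clone 98. All 3 tested genes of chromatin and transcription and all 4 of membrane transport fell in clones 84 and 99, with 1 and 2 of them in clone 98. Of the 9 remaining tested genes, 8 fell and 1 rose in clones 84 and 99 each, and 5 fell and 1 rose in clone 98. RICTOR, the defining subunit of mTOR complex 2, was at 66.9%, 57.2% and 109% of its wild-type mean of 56.5 CPM in clones 84, 99 and 98.

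Across all 10 lines, 31 of the 52 tested genes had their lowest mean in clone 99 and 12 in clone 84, and 32 had their highest mean in JAG1 knockout clone 72. The levels of most genes therefore spanned from clone 99 or 84 at the low end to clone 72 at the high end. CCT5 ran from 308.2 CPM in clone 99 to 1273 CPM in clone 72, and the order of the means from low to high was clone 99, clone 84, clone 98, followers, leaders, JAG1 knockout clone 35, clone 75, parentals, clone 38 and clone 72. Lines next to each other in this order overlapped in their libraries between clones 99 and 84 and at every step from leaders to clone 38, so the order within these stretches is not firm.

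**Figure D5:**
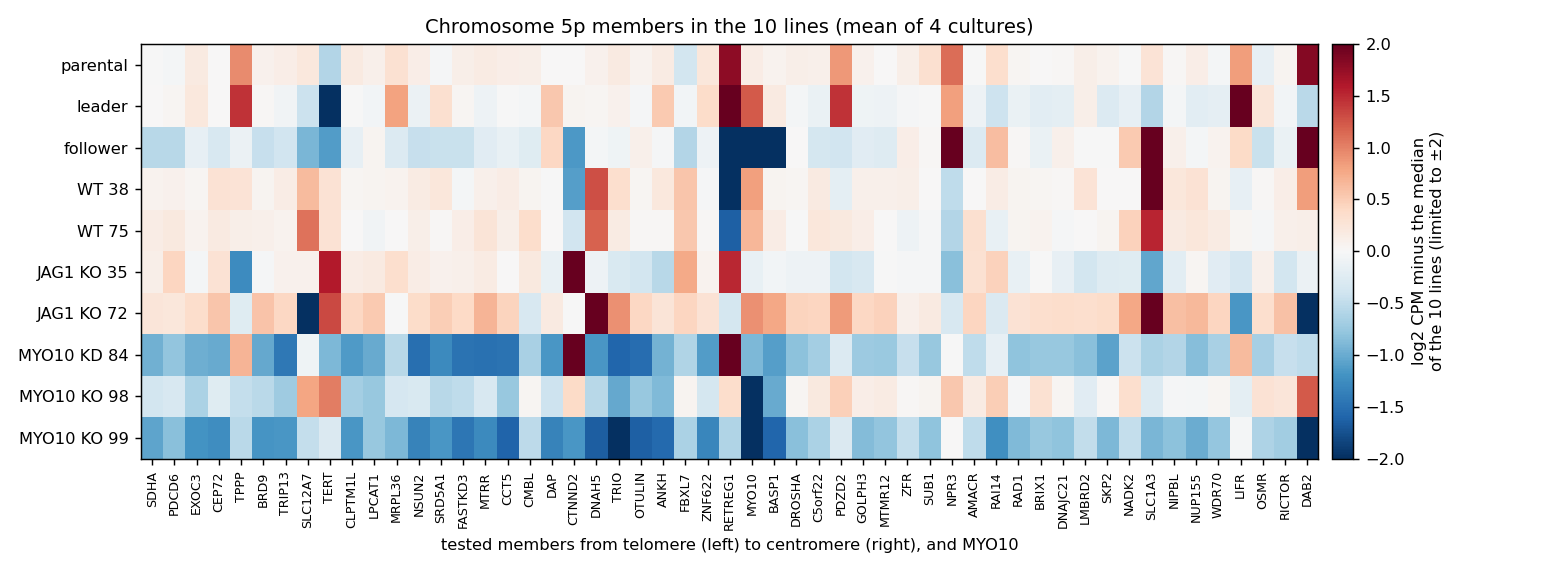
Mean log2 CPM of each tested listed gene and MYO10 in the 10 lines (mean of 4 cultures), as the difference from the median of the 10 lines, limited to ±2; genes run from telomere to centromere. Clones 84 and 99 are lower (blue) over most of the list, clone 98 over the distal and middle genes, JAG1 knockout clone 72 is higher (red) over most of it, and followers are lower over many distal and middle genes.

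JAG1 knockout clone 72 had positive medians in all 3 blocks. Against both wild-type clones, 13 of the 52 rose, 4 fell and 35 were not called, where 18.2% of all genes tested were called, 6.86% as higher and 11.4% as lower. The medians of the distal, middle and proximal blocks were 0.30, 0.36 and 0.33, against 0.00 over all genes tested, and 44 of the 52 changes were positive. The largest rises were those of RETREG1 (1.82, on 17 to 26 counts a library), DNAH5 (1.03) and TERT (1.03), each larger than the block medians. BASP1 came next, with 381.5, 387.2, 400.3 and 399 CPM in clone 72, above every wild-type library (0.66 ± 0.05, edgeR adjusted p = 1.2e-12). DROSHA had 187.1, 199.9, 189.5 and 195.1 CPM, also above every wild-type library (0.44 ± 0.04). The 5p median of 0.33 ranked 23rd of the 24 chromosomes or arms from the lowest, next to the 0.34 of chromosome 15.

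In the other direction, SLC12A7, a potassium and chloride cotransporter, had 0.736, 0.637, 0.758 and 0.776 CPM in clone 72 and 3.92 to 7.79 CPM in the wild-type libraries (-3.03 ± 0.16). DAB2 had 0.466, 0.448, 0.521 and 0.706 CPM in clone 72 and 2.48 to 5.41 CPM in the wild-type libraries (-2.86 ± 0.16). LIFR fell by 1.10 ± 0.10 and CMBL by 0.53 ± 0.06, and these 4 were the genes that fell.

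JAG1 knockout clone 35 showed no common shift of the distal and middle genes. Of the 52 genes 4 rose, 12 fell and 36 were not called, with 31.5% of all genes tested called, 15.4% as higher and 16% as lower. The block medians were 0.03, -0.03 and -0.29. TERT had 28, 26.6, 32.5 and 31.7 CPM, above every wild-type library (1.29 ± 0.11, edgeR adjusted p = 9.3e-11). RETREG1 rose by 3.78 ± 0.23 and RAI14 by 0.46 ± 0.05, and CTNND2 rose to 17 to 24 counts a library. DNAH5 fell by 1.33 ± 0.11, TPPP by 1.56 ± 0.21 and SLC12A7 by 0.79 ± 0.13, and SLC1A3 had 2 counts in the 4 libraries together. MYO10 was lower too, by 0.91 ± 0.13 (edgeR adjusted p = 1.4e-05).

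Leaders were compared with followers, the cells behind them in an invading group. Of the 52 genes, 17 were higher in leaders, 6 lower and 29 not called, and 48.1% of all genes tested were called, 23.9% as higher and 24.2% as lower. The block medians were 0.42, 0.40 and -0.11 from distal to proximal, against 0.01 over all genes tested. Over genes of at least 5 CPM, the 5p median of 0.12 ranked 18th of the 24 chromosomes or arms from the lowest. The 31 5p genes of that level outside the list had a median of -0.05. RETREG1 had 5.96, 6.34, 6.36 and 5.52 CPM in leaders (221 to 265 counts a library) and 1 count in the 4 follower libraries together. MYO10, next to it, had 18 counts in the 4 follower libraries and 22209 to 30994 counts in each leader library. BASP1, on the other side of MYO10, had 264.9, 267.3, 246.4 and 260.6 CPM in leaders and 46.1, 43.6, 45.2 and 48.9 CPM in followers (565% of the follower mean, edgeR adjusted p = 5.5e-33). The next listed genes outward differed less, ZNF622 with 46.2 CPM in followers and 63.5 in leaders (0.46 ± 0.06) and DROSHA with 142.7 and 137.7 CPM, which was not called (-0.05 ± 0.04).

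Of the proximal genes, SLC1A3, DAB2, NPR3, RAI14 and NADK2 were higher in followers. SLC1A3 had 2.94, 3.37, 4.12 and 2.19 CPM there against 5 counts in the 4 leader libraries, and DAB2 had 10.1, 11.4, 12.7 and 12.3 CPM against 1.75 to 2.03 CPM in leaders (-2.61 ± 0.14). NPR3 had 1.35, 1.46, 1.12 and 0.944 CPM in followers and 0.0749 to 0.240 CPM in leaders. LIFR was higher in leaders, at 50.9 to 54 CPM against 15.4 to 17.1 CPM in followers (1.68 ± 0.10).

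Against the parentals, 8 of 12 tested distal genes and 6 of 16 middle genes fell in followers, with block medians of -0.53 and -0.34. Of the 24 proximal genes 3 fell and 3 rose, with a median of -0.12, and 4 of all 52 rose, 17 fell and 31 were not called. Of all genes tested 43.7% were called, 22.1% as higher and 21.6% as lower. SDHA fell by 0.54 ± 0.04, PDCD6, a calcium-binding protein of membrane repair, by 0.51 ± 0.05, and TRIP13 by 0.52 ± 0.04. The distal median of single libraries was -0.53 ± 0.057 in followers and -0.02 ± 0.096 in parentals on the scale relative to the wild-type clones. Leaders against parentals gave 5 genes higher, 4 lower and 43 not called and 20.6% of all genes tested called, 8.57% as higher and 12.1% as lower. With library totals alone as the scaling, that split was 5 higher and 7 lower. The higher genes were TPPP, MRPL36, DAP, RETREG1 and LIFR and the lower ones SLC12A7, TERT, RAI14 and DAB2, and the call of TPPP was lost in 4 alternatives, at 0.46 without replicate 2 or 3 of the leaders. TERT had 1.59, 2.21, 2.26 and 1.80 CPM in leaders and 6.197, 5.914, 8.329 and 5.929 CPM in parentals (-1.75 ± 0.16).

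The wild-type clones differed from the leaders they are said to come from most strongly in single genes, with a small upward shift that was largest in the proximal block. The medians of the distal, middle and proximal blocks were 0.08, 0.03 and 0.20. Of the 52 changes, 37 were positive, as were 27 of 31 other 5p genes of at least 5 CPM (median 0.24). The 5p median of 0.17 over genes of at least 5 CPM ranked 22nd of the 24 chromosomes or arms from the lowest. Of the 52, 8 were higher in the clones, 8 lower and 36 not called, with 22.8% of all genes tested called, 12.1% as higher and 10.7% as lower, and a median of 0.15. TERT rose from 1.59 to 2.26 CPM in leaders to 9.48 to 15.9 CPM in the clones (2.63 ± 0.15, edgeR adjusted p = 7.3e-17). RETREG1 fell by 5.40 ± 0.20 and LIFR by 2.12 ± 0.08, and DNAH5 rose by 1.20 ± 0.11 and SLC12A7 by 1.33 ± 0.14. Between clones 38 and 75, 2 genes were higher in clone 38, 2 lower and 48 not called, with 13.7% of all genes tested called, 5.82% as higher and 7.92% as lower, and a median of 0.02. The 4 were SLC1A3 and DAB2, higher in clone 38, and SLC12A7 and NADK2, lower in clone 38. The call of SLC12A7 was lost without replicate 4 of clone 38 (-0.34) or replicate 1 of clone 75 (-0.39).

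With an absolute log2 change of at least 1, 26 of 52 genes were called in clone 84 against 7.19% of all genes, 26 in clone 99 against 12.3%, 6 in clone 98 against 13.7% and 10 in the knockout genotype as a whole against 8.06%. Between clones 98 and 99 it was 10 (9.55% of all genes), and between clones 84 and 99 it was 5 (14.1%). For the other comparisons it was 6 in clone 35 (13.2%), 6 in clone 72 (7.87%), 12 between leaders and followers (25.4%), 4 between leaders and parentals (9.76%), 8 between followers and parentals (20.3%), 10 between wild-type clones and leaders (9.98%) and 1 between the wild-type clones (4.37%). At this size the share in clones 84 and 99 stood well above that of all genes, and in clone 98 it was near it.

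Switch-like levels, under 1 CPM in at least 1 line and at least 5 CPM in another, were found for 3 genes. For SLC12A7 the lowest line mean was 0.727 CPM (clone 72) and the highest 6.93 CPM (clone 75). RETREG1 spanned 0.00593 CPM (followers) to 6.05 CPM (leaders), and DAB2 spanned 0.330 CPM (clone 99) to 11.6 CPM (followers). In DAB2 the parentals, at 10.1 CPM, lay next to the followers with overlapping libraries, and leaders (1.90 CPM) lay next to clone 84 (2.00 CPM), also with overlap.

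Likeness to MYO10 was described by Pearson's r of log2 CPM over the 10 line means, which share the libraries and the scaling. BASP1 was the most alike (r = 0.86), followed by RETREG1 (0.57) and PDCD6 (0.54), and the least alike were NPR3 (-0.83), SLC1A3 (-0.40) and DAB2 (-0.36). Without the follower line, r was 0.92 for BASP1, 0.00 for RETREG1 and 0.75 for PDCD6, and -0.13, 0.56 and 0.17 for NPR3, SLC1A3 and DAB2. Only for BASP1 and PDCD6 of these 6 did r stay above 0.5 with and without it. The ranking depended on the follower line: without it ANKH had the highest r of all tested listed genes (0.94), against 0.19 with it. Among listed genes of at least 5 CPM, the median r was 0.86 over 41 neighbouring pairs and 0.82 over all 861 pairs, so neighbours on the list were about as alike as pairs taken from anywhere along it.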

How the data were processed

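RNA was sequenced from 40 libraries, 4 cultures of each of 10 lines. HTSeq 2.0.5 and STAR 2.7.11b are among the tools named by the submitters' processing notes, beside fastp 0.23.4 for the reads, FastQC 0.12.0, and MultiQC 1.24.1; the build was hg38. The annotation release and strand setting are not given in the sources used here. The authors deposited raw counts, whole reads per gene symbol without normalization, for 59251 symbols.

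From these, edgeR 4.0.16 (R 4.3.3) kept 19703 genes by filterByExpr (minimum count 10, 99.96% of counts), scaled by TMM, and fitted a robust quasi-likelihood model with 1 coefficient per line to all libraries (30 residual degrees of freedom, biological coefficient of variation 8.62%). CPM was computed on the TMM scale, with a prior count of 2 in log2 CPM. For several clones, p was the largest over all pairs of lines, or 1 where directions differed. P-values were adjusted by Benjamini-Hochberg over all genes tested. Each SE covers the spread between cultures, not between clones. The procedure was tested on simulated data. DESeq2 1.42.0, other scalings, filters, designs and left-out replicates were alternatives.

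The 56 genes, lists and rules were chosen with earlier results of these data known. Genes named were drawn from the most changed called members of each comparison (up to 4 each way), not all of which are given. The neighbours of MYO10, switch-like genes and those most and least correlated with MYO10 were also named, and others as examples. CMBL, DAP, MTRR, NSUN2, PDZD2 and SUB1 had no promoter entry. Gene positions and promoters are from RefSeq (GRCh38.p14).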

Additional observations from a re-analysis of the deposited data

Results flagged for a closer look

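Each group of 4 cultures was checked for 1 culture standing far from the other 3, in 250 groups of 25 named genes. The gap to the nearest culture, divided by the range, exceeded Dixon's critical value for 4 samples in 18 of them, and chance gives about 1 in 20 such groups.

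Among the MYO10-edited clones, MYO10 in clone 84 had 190.5 CPM in replicate 3 and 133.7 to 139.6 CPM in the others, so 1 culture widens the spread of the targeted gene there. TRIO in clone 99 had 110.5 CPM in replicate 4 against 70.64 to 76.68 CPM, and DNAH5 in the same library had 5.31 CPM against 2.854 to 3.258 CPM. PDCD6 in clone 98 had 46.3 CPM in replicate 4 against 55.18 to 56.73 CPM. Each of these libraries still lay below every wild-type library for the gene.

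In the wild-type clones, TERT had 14.42 CPM in replicate 3 of clone 38 against 11.08 to 11.49 CPM, CMBL had 52.27 CPM in replicate 1 of clone 75 against 43.18 to 43.57 CPM, and DAP had 74.82 CPM in replicate 2 of clone 75 against 83.28 to 84.66 CPM. In the JAG1 knockout clone 35, BASP1 had 202.8 CPM in replicate 3 against 225.3 to 229.3 CPM. In leaders, CCT5 had 880.6 CPM in replicate 4 against 946.1 to 952.4 CPM and PDCD6 had 65.7 CPM in the same library against 69.1 to 69.44 CPM. In parentals, TERT had 8.329 CPM in replicate 3 against 5.914 to 6.197 CPM, and in followers FBXL7 had 7.462 CPM in replicate 2 against 5.6 to 5.816 CPM.

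The remaining 6 rest on few reads. MYO10 had 0.3266 CPM in replicate 2 of the followers against 0.02551 to 0.04785 CPM, which is 13 of the 18 counts of that line. RETREG1 had 0.02373 CPM in replicate 1 of the followers, its only count there. CTNND2 had 0 CPM in replicate 2 of clone 38 against 0.0238 to 0.02469 CPM, NPR3 had 0 CPM in replicate 1 of clone 75 against 0.04559 to 0.04812 CPM, SLC1A3 had 0.05074 CPM in replicate 2 of the leaders against 0.02401 to 0.02495 CPM, and SLC1A3 had 0.04956 CPM in replicate 3 of clone 35 and 0 CPM in the others.

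The 2 MYO10 knockout clones differed in 45 of the 52 tested genes, by the direct test between clones 98 and 99, though they share a genotype label.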

How the results depend on the processing

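The counts of called genes, given here in the order of leaders against followers, leaders against parentals, followers against parentals, wild-type clones against leaders, clone 38 against 75, then clones 35, 72, both MYO10 knockouts and clone 84 against the wild-type clones, clone 98 against 99, clones 98 and 99 each against the wild-type clones, and clone 84 against 99, were 23, 9, 21, 16, 4, 16, 17, 28, 48, 45, 27, 48 and 10. They moved beyond 1.5 times only when the fold minimum was raised to 1 on the log2 scale, which by its construction calls fewer genes: 12, 4, 8, 10, 1, 6, 6, 10, 26, 10, 6, 26 and 5. Leaving out each replicate gave 22 to 25, 8 to 12, 20 to 23, 15 to 17, 3 to 4, 14 to 16, 15 to 19, 26 to 28, 47 to 48, 44 to 45, 25 to 27, 47 to 48 and 9 to 13. Other scalings, filters, designs and DESeq2 gave 21 to 23, 8 to 12, 18 to 25, 14 to 16, 4, 14 to 16, 14 to 17, 27 to 28, 48, 44 to 46, 25 to 27, 47 to 48 and 9 to 12.

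Replicate numbers did not pair the cultures: in 0 of 45 pairs of lines were all 4 correlations of same-numbered deviations above 0.1. Single correlations ran from -0.149 to 0.211. With the replicate block the counts were 23, 10, 21, 16, 4, 16, 17, 28, 48, 45, 27, 48 and 10.

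For 115 results on single genes, 2104 of 2132 alternative values kept direction and call, 28 kept the direction but lost the call, and none of those run reversed. The losses fell on CTNND2 (leaders or parentals against followers), TPPP (leaders against parentals), DAP (followers against parentals), NPR3 (wild-type clones against leaders, and clone 98) and SLC12A7 (clone 38 against 75). CTNND2 lost its call at 1.89 without replicate 3 of the followers and at -1.80 without replicate 3 of the parentals, and DAP in 9 alternatives at 0.33 to 0.39. The cause was not tested. Medians moved by at most 0.02 with DESeq2 size factors, 0.08 with library totals and 0.17 with genes under 5 CPM left out, and the median between the wild-type clones went from 0.02 to -0.02 with library totals. Counts under about 10 a library limit SLC1A3, NPR3, CTNND2 and RETREG1 in the wild-type clones or followers, where a fitted fold depends on the prior count.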

Other observations

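In JAG1 knockout clone 35 the long arm of chromosome 5 stood apart from the short arm. Against the wild-type clones, 299 of 411 genes of at least 5 CPM on the long arm were called higher, beside 15.4% of all genes tested. Their median was 0.65, the highest of the 24 chromosomes or arms, while the median on the short arm was -0.11. The wild-type clones themselves were lower than leaders on the long arm, with 170 of the 411 genes called lower. The median there was -0.35, the lowest of the 24. How much of the 0.65 lies in these reference clones was not tested. In the other JAG1 knockout clone, clone 72, the short arm had a median of 0.33.

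The direct comparison of knockout clones 98 and 99 gave the short arm the highest median of the 24 (0.67, the next being 0.18 on chromosome 9). The 42 listed genes of at least 5 CPM had a median of 0.85 and the 31 other genes of the arm one of 0.17. Of these 31, 10 were called higher and 11 lower, beside 11% and 14.3% of all genes tested. In the unedited lines the shifts were smaller, with a median of -0.24 on the short arm in followers against parentals and -0.13 in leaders against parentals, each the second lowest of the 24. No hypothesis was tested on these values.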
